A study of Mus musculus with 15 samples.

Results

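The ethanol effect shared by livers of 2 kinds was measured: livers that carried luciferase, a control enzyme, and livers that carried LbNOX, a bacterial enzyme that oxidises NADH. All 15 libraries of the series entered the comparison, 9 after water and 6 after ethanol. They comprised 5 luciferase livers after water (M1 to M5 in the deposited table), 4 LbNOX livers after water (M6 to M9), 3 luciferase livers after ethanol (M10 to M12) and 3 LbNOX livers after ethanol (M13 to M15). Mice received water or ethanol by gavage and the liver was taken 6 h later. The series' design statement names wild-type and ChREBP mice, whereas sample titles and column headers give luciferase and LbNOX. Groups follow the titles and headers, and whether any animal carried a ChREBP allele or construct is not settled here. The strain, age, ethanol dose and way of delivering the constructs are not given in the sources used here. No label states that each library is from a different mouse, so p-values here reflect only how far these samples spread, which may be technical.

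Ethanol is oxidised in hepatocytes to acetaldehyde by alcohol dehydrogenase and then to acetate by aldehyde dehydrogenase, and each step turns NAD+ into NADH. LbNOX takes NADH back to NAD+ while reducing oxygen to water, so it acts on the redox side of ethanol oxidation. The comparison asked which transcripts differed after ethanol whichever construct the liver carried. The liver transcriptome also follows the daily clock, feeding, hormones and the supply of sterols and fatty acids, and genes of those programs are described by role.

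Recovered depth was 10.6 to 15.7 M reads in ethanol libraries and 13.7 to 23.7 M reads in water libraries, so depth moved with gavage. The part of depth in the results was not tested. Every library carried hepatocyte RNA: the 10 hepatocyte markers, albumin among them, summed to 651011 normalised counts or more per library. Water libraries M3 and M8 stood apart. Their mean Spearman correlation with the rest of their group was 0.958 and 0.960 across genes, and that of the other libraries was 0.965 to 0.975. M3 and M8 also had the highest Kupffer cell marker sums, 5968 and 4873 normalised counts. The pancreas and fat markers summed to 4809.8 in M8, 769 in M3 and at most 456 in the other libraries. In bulk tissue, fewer cells of a type and less RNA per cell cannot be told apart.

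Ethanol was followed by a small shared change. Of 13570 genes tested, 378 were called at a Benjamini-Hochberg adjusted p below 0.05 in limma with construct as a covariate (2.79%), 202 higher (1.49%) and 176 lower (1.30%) after ethanol. All 378 had the same direction in each construct, which a fit without an interaction term largely fixes. The effects are differences of log2(normalised count + 1), a scale that understates the change of low genes. The median effect of the higher genes was 0.77, with 0.94 in luciferase and 0.53 in LbNOX livers. That of the lower genes was −0.58, with −0.65 and −0.50. The effect was larger in luciferase livers for 275 of the 378 genes (72.8%). For 28 of the 378 the difference between the constructs' effects itself had an adjusted p below 0.05, against 227 of all genes tested (1.67%).

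An effect of at least 0.5 on the log2 scale in each construct was seen for 164 of the called genes (1.21% of genes tested), 102 higher and 62 lower. Ethanol and water libraries did not overlap in either construct for 106 of the higher and 82 of the lower called genes. Over all genes tested the counts without overlap were 136 higher (1.00%) and 107 lower (0.789%), with 62 separated in opposite directions. Tested one construct at a time at an unadjusted p below 0.05, 329 genes moved the same way in both (2.42%) and 109 moved opposite ways (0.803%). Of the 378 called genes, 251 passed that unadjusted threshold in each construct, 116 in luciferase livers without LbNOX livers and 11 in LbNOX livers without luciferase livers. At an adjusted p below 0.05 in limma, 1052 genes (7.75%) passed within luciferase livers and 1 (0.0074%) within LbNOX livers. Of the 378 called genes, 262 were among those 1052.

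**Figure D1:**
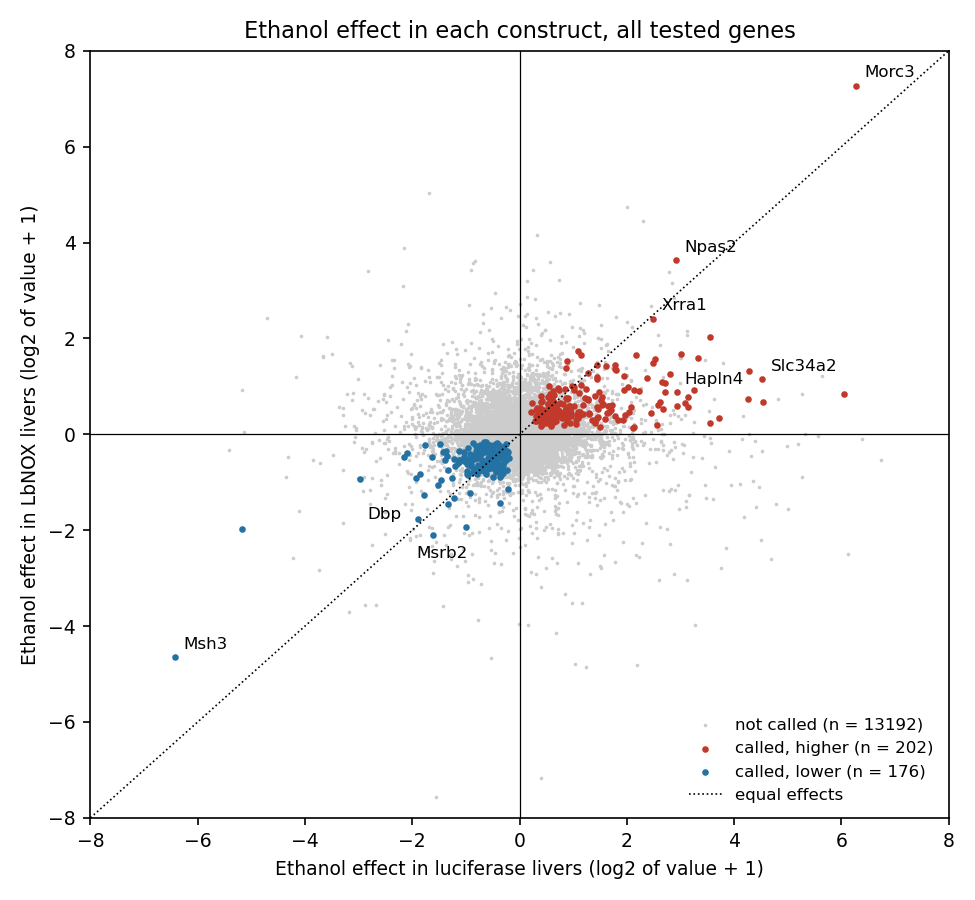
Ethanol effect in luciferase livers (horizontal axis) against LbNOX livers (vertical axis), both as differences of log2(normalised count + 1), for 13570 genes. Red points are the 202 genes called higher, blue points the 176 called lower and grey points the rest; 275 of the 378 called genes had the larger effect in luciferase livers, and Npas2, Xrra1 and Dbp lie near that line.

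Of the clock genes, Npas2 rose and Dbp and Nr1d2 fell after ethanol in the 15 libraries. The core clock pairs BMAL1 with CLOCK or NPAS2 to switch on repressors and output factors, and the liver's metabolism follows it over the day. Npas2, Dbp and Nr1d2 were the 3 called of 18 clock genes tested (16.7%, beside 2.79% of all genes). This list and those below were chosen with earlier results of these data known, so such shares are descriptions and not tests. Npas2, the partner of BMAL1 that can stand in for CLOCK, stood at 3.00, 3.64, 9.97, 14.1 and 5.00 normalised counts in the luciferase water livers and at 1.64, 0.781, 4.62 and 2.52 in the LbNOX water livers. After ethanol it stood at 146, 18.7 and 53.6 in luciferase and 44.3, 23.6 and 49.6 in LbNOX livers. Every ethanol library lay above every water library. This gave a log2 effect of 3.26 (SE 0.46, adjusted p = 0.00350), with 2.92 in luciferase and 3.63 in LbNOX livers. The gene was low in water livers, so the size depends on the constant added: the effect was 2.46 with 5 added and 3.44 with 0.5 added.

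Dbp, an output factor that drives daily rhythms of liver enzymes, fell. Its normalised counts were 479, 726, 493, 556 and 1125 in luciferase and 1013, 769.5, 422 and 1341 in LbNOX livers after water. After ethanol they were 81.1, 295 and 207 in luciferase and 163, 504 and 162 in LbNOX livers. The ethanol library M14, at 504, lay within the LbNOX water range, while the groups did not overlap in luciferase livers. It had a log2 effect of −1.84 (SE 0.34, adjusted p = 0.0135), with −1.90 in luciferase and −1.78 in LbNOX livers, a difference of 0.13 (SE 0.70). Nr1d2, a repressor of the BMAL1 gene, ranged over 1696 to 2394 normalised counts after water and 1399.6 to 1564 after ethanol in luciferase livers. In LbNOX livers it ranged over 2154 to 2361 after water and 1310.4 to 1786 after ethanol, with no overlap in either construct. Its log2 effect was −0.54 (SE 0.09, adjusted p = 0.00826). The calls for Npas2, Dbp and Nr1d2 were kept whichever library was left out. Arntl, which encodes BMAL1, had a log2 effect of 1.31 (adjusted p = 0.258), and Per3, a clock repressor, had an effect of −0.62 (adjusted p = 0.303). Both were singled out from the uncalled clock genes and were not named by rule. The median over the 18 genes was 0.05, with 0.36 in luciferase and −0.24 in LbNOX livers, against −0.0041 over all genes tested. Below 0 in both constructs lay 3 of the 18 (16.7%), beside 25.9% of all genes. Above 0 in both lay 4 (22.2%), beside 26.0% of all genes, so the list as a whole did not move together in the constructs.

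**Figure D2:**
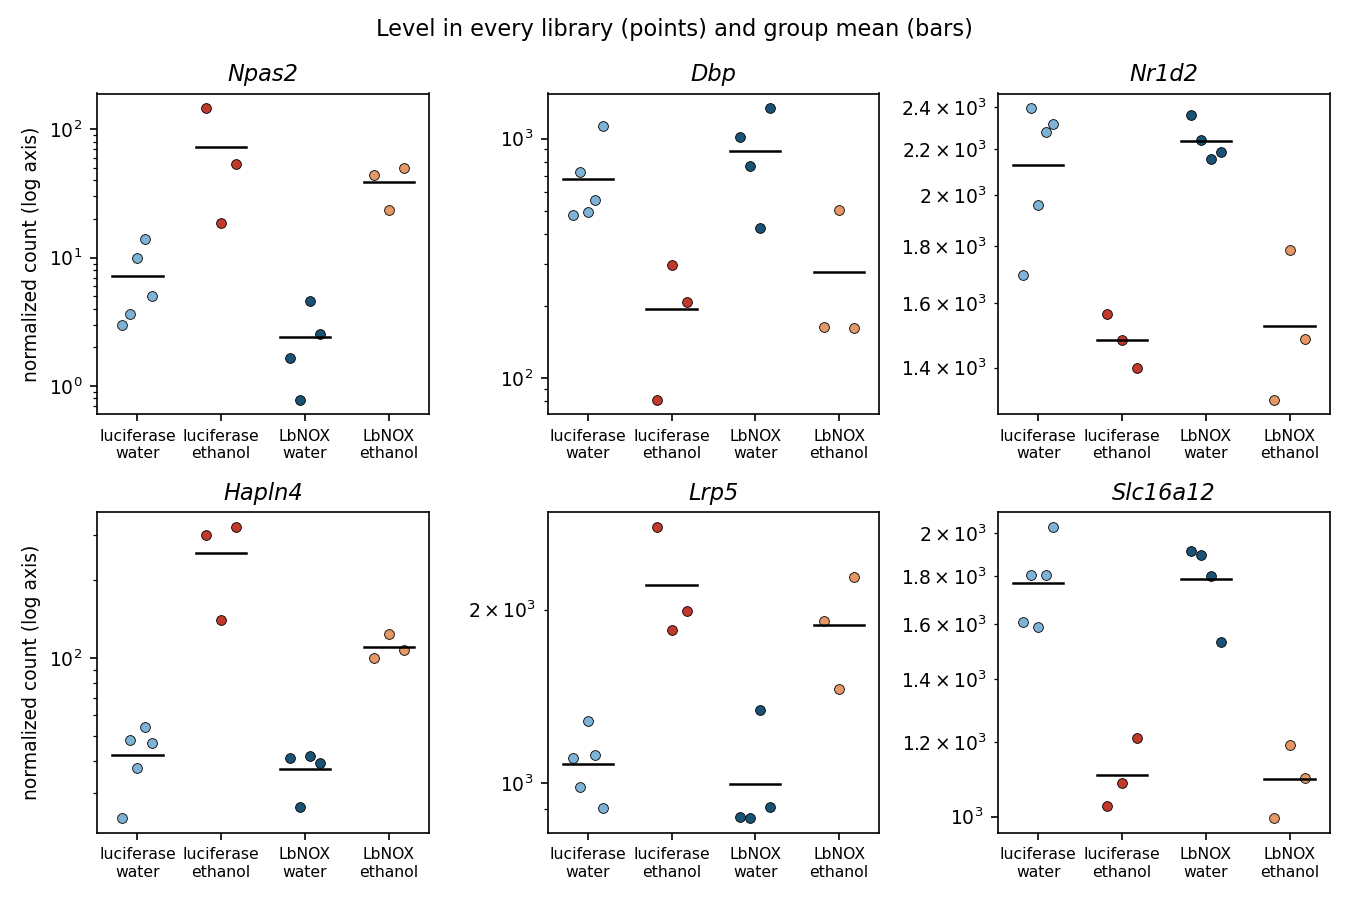
Normalised counts on log axes for 6 named genes in the 4 groups, luciferase water (n = 5), LbNOX water (n = 4), luciferase ethanol (n = 3) and LbNOX ethanol (n = 3). Each point is a library and each bar a group mean. For Npas2 every ethanol library lies above every water library.

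Genes of cholesterol synthesis fell as far as they were called. When sterols run low, SREBP2 moves to the nucleus and raises the enzymes of the pathway, and INSIG1 holds it back in the endoplasmic reticulum. Of 22 genes of synthesis and uptake, 5 fell and none rose, or 22.7% called beside 2.79% of all genes. The median log2 effect was −0.23, with −0.27 in luciferase and −0.15 in LbNOX livers. The effect was below 0 in both constructs for 12 of the 22, beside 25.9% of all genes tested. It was above 0 in both for 2, beside 26.0% of all genes tested. An unadjusted p below 0.05 in limma was reached by 9 of the 22, beside 18.5% of all genes. Of these only Fdps rose, by 0.48 on the log2 scale. Stard4 had effects of 1.05 in luciferase and −0.27 in LbNOX livers, with an adjusted p of 0.0449 for the difference.

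Insig1, the retention factor, stood at 2015, 2961, 2967, 2940.5 and 3382 normalised counts in luciferase and 2779, 2719, 2248 and 3574 in LbNOX livers after water. After ethanol it stood at 1502, 1308 and 1539 in luciferase and 1633, 2189 and 1848 in LbNOX livers. The groups did not overlap in either construct, and the log2 effect was −0.77 (SE 0.13, adjusted p = 0.00826). Hmgcs1, the enzyme that makes HMG-CoA for the pathway, went from 3173 ± 570.1 (SD, n = 5) to 1879.6 ± 139.9 (SD, n = 3) in luciferase livers. In LbNOX livers it went from 3063 ± 356 (SD, n = 4) to 2455 ± 442 (SD, n = 3). Its log2 effect was −0.54 (SE 0.12, adjusted p = 0.0296). Hsd17b7, a sterol reductase late in the pathway, had an effect of −0.43 (SE 0.10, adjusted p = 0.0313), with −0.36 in luciferase and −0.49 in LbNOX livers. Fdft1, squalene synthase, and Srebf2, which encodes SREBP2, fell by 0.42 (adjusted p = 0.0361) and 0.30 (adjusted p = 0.0454) on the log2 scale. Both were singled out after their values were seen.

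The Insig1 call was kept whichever library was left out. The number of sterol genes called fell to 1 without M6, M11, M12 or M13, to 2 without M10, and to 3 without M1, M2, M5, M7 or M9.

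The bases upstream of the start sites are shown for 3 of the sterol genes, since these genes moved together and their promoters can be read side by side. They come from RefSeq on GRCm38.p6, run 5′ to 3′ along the gene's strand, and leave out bases that GENCODE vM21 places in an exon. Capitals mark the CCAAT box (CCAAT or its complement ATTGG), the E-box CACGTG and the sterol element TCACNCCAC, searched on both strands.
Insig1, chr5:28071162-28071362, plus strand: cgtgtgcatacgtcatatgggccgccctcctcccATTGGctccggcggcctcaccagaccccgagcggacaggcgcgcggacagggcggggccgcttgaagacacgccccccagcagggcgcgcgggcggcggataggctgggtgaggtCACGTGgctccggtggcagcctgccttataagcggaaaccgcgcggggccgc
Hmgcs1, chr13:119690101-119690350, plus strand: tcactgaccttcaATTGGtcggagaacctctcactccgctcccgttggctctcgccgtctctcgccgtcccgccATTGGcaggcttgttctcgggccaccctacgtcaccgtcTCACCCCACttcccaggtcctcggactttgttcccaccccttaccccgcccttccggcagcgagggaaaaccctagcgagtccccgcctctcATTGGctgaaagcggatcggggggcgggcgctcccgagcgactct
Hsd17b7, chr1:169969242-169969408, minus strand: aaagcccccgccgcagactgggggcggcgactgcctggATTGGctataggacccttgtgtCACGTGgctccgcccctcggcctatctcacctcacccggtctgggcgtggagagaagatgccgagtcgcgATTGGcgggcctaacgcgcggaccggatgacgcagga

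The Hmgcs1 window held the sterol element at −137 from the start site and 3 CCAAT boxes. Insig1 held an E-box at −101 and a CCAAT box at −216. Hsd17b7 held an E-box at −143 and 3 CCAAT boxes, of which the one at −12 lies beyond the printed bases. Among 250-base windows upstream of 32851 promoters, 1.05% held the sterol element, 6.02% the E-box and 33.8% a CCAAT box. All 4 called sterol genes with a RefSeq entry held a CCAAT box. Fdft1 had no entry. A match describes the letters and says nothing of binding.

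Genes of fatty acid oxidation and of PPARA, the nuclear receptor that fatty acids activate in fasting, were lower where called. Of 28 tested, 4 fell and none rose (14.3% called, beside 2.79% of all genes). The median log2 effect was −0.20, with −0.21 in luciferase and −0.30 in LbNOX livers, and 15 of the 28 lay below 0 in both constructs, beside 25.9% of all genes. DESeq2 called 7. Acot4, a peroxisomal acyl-CoA thioesterase, stood at 1642, 1272, 1306, 2379.8 and 2796 normalised counts in luciferase and 1807, 1702, 1166 and 1490.5 in LbNOX livers after water. After ethanol it stood at 806, 793 and 642 in luciferase and 834, 978 and 634 in LbNOX livers. This was a log2 effect of −1.10 (SE 0.18, adjusted p = 0.00700), with −1.26 in luciferase and −0.92 in LbNOX livers. Acot3, a related thioesterase, had an effect of −2.00 (SE 0.40, adjusted p = 0.0208), with −2.98 in luciferase and −0.93 in LbNOX livers. The difference between those effects did not pass, with an adjusted p of 0.132.

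Cpt1a carries long-chain fatty acids into mitochondria and sets the pace of their oxidation. It went from 9976 ± 1756 (SD, n = 5) to 5715 ± 1844 (SD, n = 3) normalised counts in luciferase livers and from 10373 ± 2275 (SD, n = 4) to 6191 ± 635 (SD, n = 3) in LbNOX livers. Its log2 effect was −0.78 (SE 0.16, adjusted p = 0.0193), with −0.84 in luciferase and −0.72 in LbNOX livers, a difference of 0.12 (SE 0.32). Plin2, the coat protein of liver lipid droplets, fell by 0.58 on the log2 scale (adjusted p = 0.0231) and was singled out after its value was seen. The medium-chain dehydrogenase gene Acadm was not called, with an effect of −0.04 (adjusted p = 0.904). The Acot4 call was kept whichever library was left out. The count of 4 fell to 1 without M10 or M12 and rose to 8 without both M3 and M8.

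**Figure D3:**
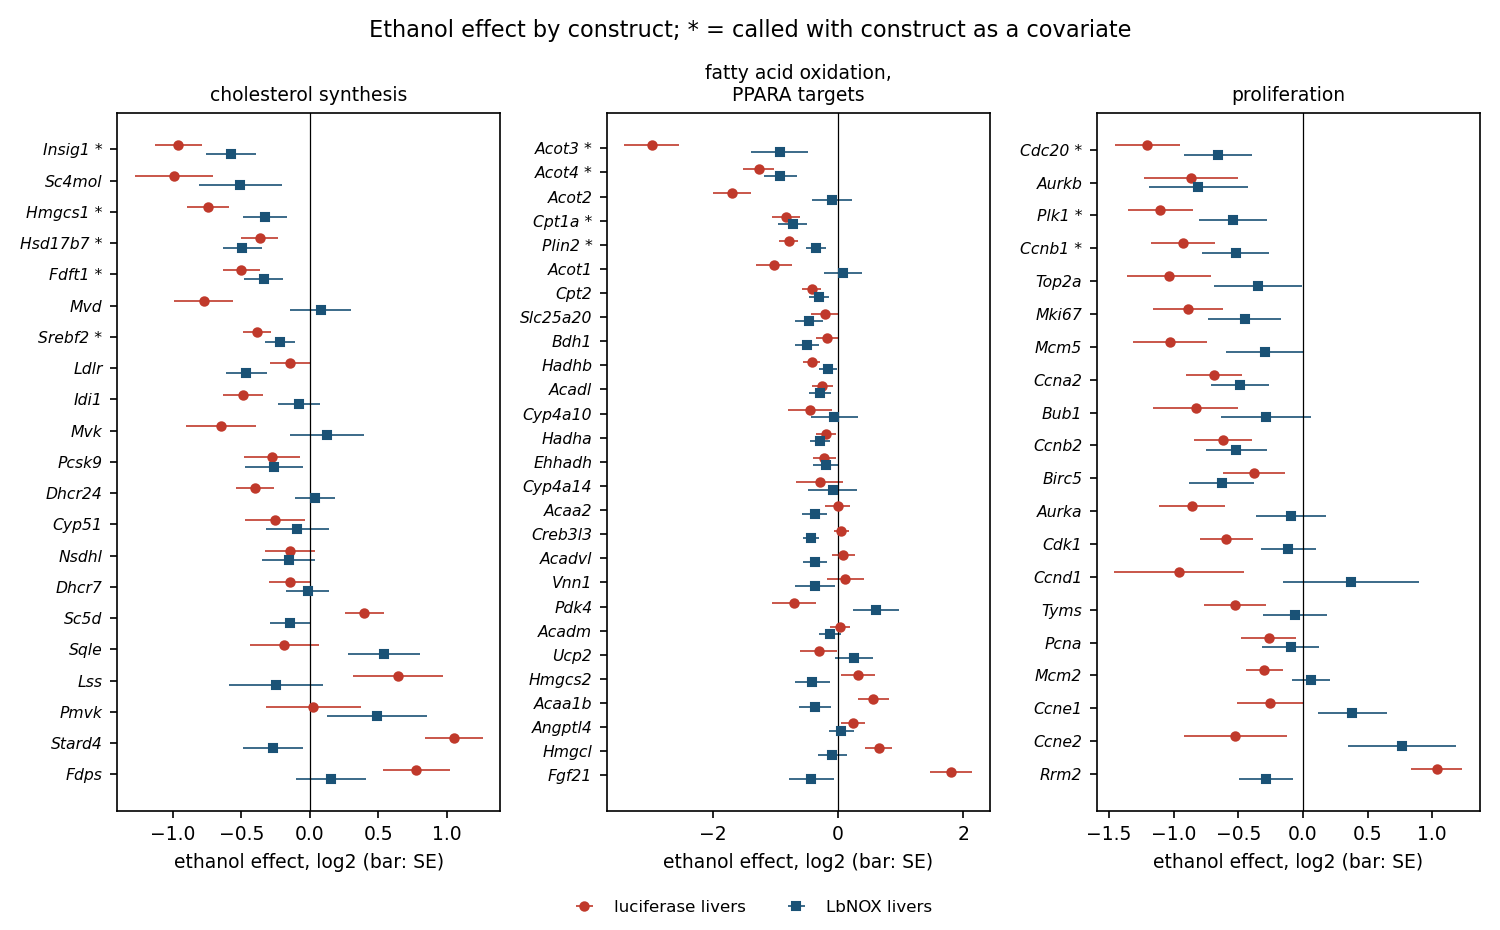
Ethanol effects (log2, bars are standard errors) in luciferase (circles) and LbNOX livers (squares) for the tested genes of 3 lists, apart from 2 not reported here, ordered by the shared effect. Asterisks mark genes called with construct as a covariate: 5 of cholesterol synthesis, 4 of fatty acid oxidation and 3 of proliferation, all below 0 in both constructs.

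Among 18 lipogenesis genes, Elovl6 and Acaca rose and Fads2 fell, 16.7% called beside 2.79% of all genes. The median log2 effect was 0.49, with 1.00 in luciferase and −0.06 in LbNOX livers. Of the 18, 12 had an unadjusted p below 0.05 in limma, beside 18.5% of all genes. DESeq2 called 7 and the mean of the within-construct effects 8. Elovl6, which lengthens palmitate, had a log2 effect of 1.69 (SE 0.31, adjusted p = 0.0130). Its normalised counts in luciferase livers were 1518, 1856, 1024, 2363 and 2098 after water and 16864, 7036 and 9724 after ethanol. In LbNOX livers they were 1459, 1687, 1502 and 1487 after water and 2438, 2656 and 2264 after ethanol. The rise in luciferase livers was 2.62 and the effect in LbNOX livers 0.68 (unadjusted p = 0.0283), a difference of −1.95 (adjusted p = 0.0230). Acaca, which makes malonyl-CoA, had an effect of 1.09 (SE 0.25, adjusted p = 0.0333). The Acaca effect was 1.67 in luciferase and 0.46 in LbNOX livers, the latter with an unadjusted p of 0.138 in limma. Fads2, the delta-6 desaturase of polyunsaturated fatty acids, fell by 0.78 on the log2 scale (SE 0.15, adjusted p = 0.0139), with −0.84 in luciferase and −0.72 in LbNOX livers. Its call and that of Elovl6 were kept whichever library was left out, while that of Acaca was lost without M1, M2, M5, M9, M10, M11, M12 or M13 (highest adjusted p = 0.0902). Mogat2, which makes diacylglycerol, rose by 2.38 (adjusted p = 0.00147), with 3.01 in luciferase and 1.68 in LbNOX livers, and was chosen after its value was seen. Its mean was below 50 normalised counts, the limit for the ranked genes, and its effect with other added constants is not given here. Lipogenesis calls numbered 4 without M8 and 5 without M15.

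Cell division genes fell as far as they were called. Few hepatocytes divide in an adult liver, and other liver cells can divide too. Of 20 proliferation genes, 3 fell and none rose beside 2.79% of all genes called, and 15 of the 20 lay below 0 in both constructs, beside 25.9% of all genes. The median log2 effect was −0.54, with −0.76 in luciferase and −0.29 in LbNOX livers. Cdc20, which activates the anaphase-promoting complex, stood at 999, 1127, 1141, 494 and 1016 normalised counts in luciferase and 610.4, 748, 537 and 839 in LbNOX livers after water, and at 421, 313 and 476 in luciferase and 382, 397 and 513 in LbNOX livers after ethanol. M4 was low among the water libraries. Its log2 effect was −0.94 (SE 0.19, adjusted p = 0.0202). Plk1, a mitotic kinase, had an effect of −0.84 (SE 0.19, adjusted p = 0.0343), and Ccnb1, cyclin B1, had an effect of −0.73 (SE 0.18, adjusted p = 0.0434). Mki67, the usual marker of cycling cells, was not called, at −0.68 (adjusted p = 0.0768).

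Cenpf, a kinetochore gene among the largest shared falls, fell by 1.22 on the log2 scale (adjusted p = 0.0422), a call lost without M1, M2, M3, M5, M6, M9, M10, M11, M12 or M13 (highest adjusted p = 0.108). Markers of T and NK cells, 9 tested, had a median log2 effect of −0.76, with −0.92 in luciferase and −0.40 in LbNOX livers. None was called in limma, edgeR or DESeq2, and 3 had an unadjusted p below 0.05 in limma, beside 18.5% of all genes. All 11 in the table had reads in every group. Their summed level was 110.3 to 419.7 normalised counts in luciferase water, 195 to 291 in LbNOX water, 99.2 to 123 in luciferase ethanol and 116 to 256 in LbNOX ethanol livers. The 6 red blood cell markers tested lay below 0 in both constructs, 4 at an unadjusted p below 0.05 and none called by any of the 3 tools, with a median of −0.51. Their summed level was 11234 to 19059.7 and 10711 to 16671 after water and 8483 to 14198 and 4861 to 10899 after ethanol, luciferase first. The part of these cells in the cell division result was not tested. No proliferation gene was called without M10 or M11, 1 was called without M1, M2, M5, M7, M12, M13 or M14, 8 without M4 and 7 without M15. There were 2 calls in edgeR and 9 in DESeq2.

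The upstream bases of Cdc20 and Ccnb1 are shown on the same terms, with the cell cycle element TTTGAA (CHR) and CCAAT boxes in capitals.
Cdc20, chr4:118437353-118437593, minus strand: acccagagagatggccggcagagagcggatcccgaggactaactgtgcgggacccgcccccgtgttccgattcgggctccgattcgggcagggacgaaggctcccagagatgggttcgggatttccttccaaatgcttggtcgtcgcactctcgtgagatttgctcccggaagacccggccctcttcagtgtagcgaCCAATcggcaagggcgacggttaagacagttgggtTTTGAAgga
Ccnb1, chr13:100786571-100786736, minus strand: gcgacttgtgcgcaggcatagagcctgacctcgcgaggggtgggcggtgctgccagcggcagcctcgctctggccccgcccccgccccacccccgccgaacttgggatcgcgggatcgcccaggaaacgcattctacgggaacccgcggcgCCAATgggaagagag

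Cdc20 held TTTGAA at −18 and CCAAT boxes at −53 and −8, and Ccnb1 held CCAAT boxes at −99 and −67. The boxes at −8 and −67 lie beyond the printed bases. TTTGAA occurs in 16.0% of the 250-base windows upstream of all 32851 promoters. All 3 called proliferation genes held a CCAAT box, beside 33.8% of those windows. So did 3 of 3 called PPARA genes with a RefSeq entry and 2 of 3 called clock genes. Of all the genes searched, Hmgcs1 alone held the sterol element and Cdc20 alone the CHR. The D-box and the ROR element, taken as clock motifs, and a direct repeat, taken as a PPARA motif, were also searched. No called clock gene held an E-box, D-box or ROR element, and no called PPARA gene held the direct repeat. Among the PPARA genes, Plin2 held a ROR element and Acot4 an E-box.

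Of 18 glucocorticoid response genes, Zbtb16 and Igfbp1 rose and none fell, 11.1% called beside 2.79% of all genes. The median log2 effect was 0.56, with 0.82 in luciferase and 0.30 in LbNOX livers, and 12 lay above 0 in both constructs, beside 26.0% of all genes tested. Zbtb16, a transcription factor that glucocorticoids induce, had an effect of 1.12 (SE 0.28, adjusted p = 0.0438). The Zbtb16 effect was 1.56 in luciferase and 0.64 in LbNOX livers, the latter with an unadjusted p of 0.111 in limma. For the whole list the counts of calls varied. There were 6 calls in DESeq2, none without M10, M11 or M13 and 1 without M1, M3, M6, M7, M9 or M12. Ddit4, an inhibitor of mTORC1 from the integrated stress response list, stood at 348, 419.9, 280.1, 341 and 314 normalised counts in luciferase and 412, 419.5, 373 and 373 in LbNOX livers after water. After ethanol it stood at 916, 1289.8 and 1011 in luciferase and 849.6, 494 and 507 in LbNOX livers. Its log2 effect was 1.15 (SE 0.19, adjusted p = 0.00700), with 1.65 in luciferase and 0.60 in LbNOX livers.

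Igfbp1, which insulin represses and whose protein binds insulin-like growth factors in blood, had an effect of 1.59 (SE 0.33, adjusted p = 0.0231), with 2.22 in luciferase and 0.90 in LbNOX livers. It was the only one called of 17 insulin feedback genes tested, where 2.79% of all genes were called. The Ddit4 call was kept whichever library was left out. That of Igfbp1 was lost without M10, M11 or M13 (highest adjusted p = 0.0715) and that of Zbtb16 without M1, M3, M4, M6, M7, M8, M9, M10, M11, M12 or M13 (highest adjusted p = 0.123).

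Bcl6 rose and Cish fell. Bcl6, a transcriptional repressor that growth hormone lowers in liver, stood at 122, 109, 259, 314 and 232 normalised counts in luciferase and 216, 138, 154 and 126 in LbNOX livers after water, and at 328, 665 and 454 in luciferase and 537, 316 and 312 in LbNOX livers after ethanol. Bcl6 had a log2 effect of 1.27 (SE 0.25, adjusted p = 0.0169), with 1.27 in luciferase and 1.27 in LbNOX livers, and the call was kept whichever library was left out. Cish, a feedback inhibitor that STAT5 induces, had an effect of −1.30 (SE 0.30, adjusted p = 0.0343), with −1.51 in luciferase and −1.06 in LbNOX livers. The Cish call was lost without M1, M2, M5, M6, M10, M11, M12, M13 or M14 (highest adjusted p = 0.0850).

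Of 20 integrated stress response genes, 2 (Ddit4 and Vldlr) rose and none fell, beside 2.79% of all genes. Vldlr, a lipoprotein receptor, had an effect of 1.00 (SE 0.23, adjusted p = 0.0314). The median was 0.41, with 0.60 in luciferase and 0.06 in LbNOX livers. DESeq2 called 5 of this list, and 1 was called in limma without M2, M5, M7, M11, M12 or M13. Of 21 aminoacyl-tRNA synthetase genes, 1 was called, a share near the 2.79% of all genes called. It was Tarsl2, a threonyl-tRNA synthetase gene, with −0.65 (SE 0.16, adjusted p = 0.0392). Its effects were −0.21 in luciferase (unadjusted p = 0.165 in limma) and −1.14 in LbNOX livers. These differed by −0.93 (adjusted p = 0.0394). Nampt, the rate-limiting enzyme of NAD+ salvage, was the only gene called of 19 in NAD metabolism, again near that share. It went from 2490.4 ± 322 (SD, n = 5) to 1693 ± 206 (SD, n = 3) normalised counts in luciferase and from 2192 ± 161 (SD, n = 4) to 1694 ± 84.0 (SD, n = 3) in LbNOX livers, an effect of −0.47 (SE 0.09, adjusted p = 0.0154). The Nampt call was kept whichever library was left out, while the Vldlr call was lost without M2, M5, M7, M11, M12 or M13 (highest adjusted p = 0.0799) and the Tarsl2 call without M1, M2, M5, M6, M7, M9, M11, M13, M14 or M15 (highest adjusted p = 0.0853).

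In carbohydrate and amino acid metabolism, Got1, the cytosolic aspartate aminotransferase of the malate-aspartate shuttle, had an effect of 1.01 (SE 0.20, adjusted p = 0.0187), with 1.27 in luciferase and 0.71 in LbNOX livers, and was the only one called of 18 genes of gluconeogenesis and amino acid catabolism. Pfkfb3, which makes the activator of phosphofructokinase, had an effect of 1.12 (SE 0.26, adjusted p = 0.0354) and was the only one called of 16 glycolysis genes, counts near the 2.79% of all genes called. The Pfkfb3 effect was 1.79 in luciferase and 0.39 in LbNOX livers, the latter with an unadjusted p of 0.189 in limma. The Got1 call was lost without M10 or M11 (highest adjusted p = 0.0534) and that of Pfkfb3 without M1, M2, M5, M6, M10, M11, M12 or M13 (highest adjusted p = 0.104).

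Several of the shared changes with the smallest adjusted p lay outside these lists. Hapln4, a link protein of the hyaluronan matrix, stood at 24.0, 48.2, 37.4, 54.0 and 47.0 normalised counts in luciferase and 41.1, 26.6, 41.6 and 39.1 in LbNOX livers after water. After ethanol it stood at 300.2, 139.9 and 323 in luciferase and 99.6, 124 and 108 in LbNOX livers. The groups did not overlap in either construct. Its log2 effect was 2.07 (SE 0.25, adjusted p = 0.00147), with 2.53 in luciferase and 1.56 in LbNOX livers. Lrp5, a co-receptor for Wnt, ranged over 906 to 1279 normalised counts after water and 1846 to 2787 after ethanol in luciferase livers, and over 868 to 1338 and then 1456 to 2277 in LbNOX livers. Its effect was 0.97 (SE 0.13, adjusted p = 0.00334). Sh3pxd2a, a scaffold of podosomes, had an effect of 1.91 (SE 0.30, adjusted p = 0.00573), with 2.66 in luciferase and 1.09 in LbNOX livers.

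Hpcal1, a neuronal calcium sensor family gene, Tsc22d2 and Tpst2, a tyrosylprotein sulfotransferase, had smaller and tight rises of 0.91 (SE 0.11, adjusted p = 0.00147), 1.00 (SE 0.14, adjusted p = 0.00334) and 0.72 (SE 0.10, adjusted p = 0.00350). Each of these 6 calls was kept in every alternative run. The matrix gene Npnt, thrombomodulin (Thbd) and Xrra1 had larger effects, 1.45 (adjusted p = 0.0209), 1.92 (adjusted p = 0.0233) and 2.45 (adjusted p = 0.0187). These calls were lost without M10, M12 or M13 (highest adjusted p = 0.0612) for Npnt, M10, M11, M12 or M13 (highest adjusted p = 0.0624) for Thbd and M10 (highest adjusted p = 0.0551) for Xrra1. Slc34a2, a phosphate transporter, had an effect of 2.91 (adjusted p = 0.0241). The Slc34a2 effect was 4.52 in luciferase and 1.14 in LbNOX livers, the latter with an unadjusted p of 0.101 in limma. Its call was lost without M10, M11 or M12 (highest adjusted p = 0.0674) and in the fit without the construct. Fam198a, Syne4, Mpzl1 and St6galnac4 rose by 1.58, 1.58, 1.40 and 1.60 on the log2 scale. Each of these calls was lost without M10 and also without M13, and that of St6galnac4 without 13 of the 15 libraries.

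Among the falls, Slc16a12, a transporter of creatine, had the smallest adjusted p. It stood at 1610.0, 1808, 1592, 1806 and 2033 normalised counts in luciferase and 1913, 1897, 1803 and 1535 in LbNOX livers after water. After ethanol it stood at 1028, 1085 and 1211 in luciferase and 996, 1193 and 1098 in LbNOX livers. It had a log2 effect of −0.69 (SE 0.08, adjusted p = 0.00147), with −0.67 in luciferase and −0.70 in LbNOX livers. Msrb2, a mitochondrial methionine sulfoxide reductase, fell by more, 1.84 on the log2 scale (SE 0.30, adjusted p = 0.00700). Its normalised counts were 150.4 to 398 in luciferase and 165 to 418 in LbNOX livers after water, and 64.1 to 170.3 in luciferase and 49.8 to 121 in LbNOX livers after ethanol, so that the groups overlapped in luciferase livers. Sec16b, of endoplasmic reticulum exit sites, the phosphatase gene Ctdsp1, and the uncharacterised 2810459M11Rik and D630039A03Rik had effects of −0.71 (adjusted p = 0.00334), −0.66 (adjusted p = 0.00279), −0.80 (adjusted p = 0.00154) and −0.91 (adjusted p = 0.00279). Each of these 6 falls was kept in every alternative run.

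The CTP synthase gene Ctps2, the serpin Serpinb8, the myeloid lectin receptor Clec12a, the G-protein regulator Rgs3 and 4930523C07Rik had effects of −1.39 (adjusted p = 0.0326), −1.07 (adjusted p = 0.0291), −1.45 (adjusted p = 0.0418), −0.91 (adjusted p = 0.0438) and −1.44 (adjusted p = 0.0298). Each of these calls was lost without M10 and without 3 to 11 libraries in all, Serpinb8 with the fewest and Clec12a and Rgs3 with the most.

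The largest effects on the log2 scale belonged to Msh3 and Morc3, which were listed at 0 in whole libraries. Msh3, a DNA mismatch repair gene, was at 125, 73.6, 154, 130.2 and 23.0 normalised counts in luciferase and 169, 89.8, 84.7 and 112 in LbNOX livers after water. After ethanol it was listed at 0 in every library except M14, which stood at 85.6. Morc3, a chromatin-associated ATPase gene, ran the other way: it was at 59.9, 0, 701, 0 and 0 in luciferase and 0, 0, 0 and 557 in LbNOX livers after water, and at 712, 552 and 699 in luciferase and 876, 643 and 746 in LbNOX livers after ethanol. Zeros beside such values are given as listed, with no fold. In edgeR on the recovered reads neither was called, with adjusted p = 0.0971 for Msh3 and 0.352 for Morc3. In limma without each library in turn, adjusted p reached 0.0171 for Msh3 and 0.103 for Morc3, whose call was lost without 13 of the 15 libraries. Such zeros beside a median of at least 100 normalised counts were present in 110 tested genes, 2 of them called.

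The enzymes that oxidise ethanol showed no call: 0 of 14 genes of ethanol and acetate metabolism passed in limma, edgeR or DESeq2, and 1 had an unadjusted p below 0.05 in limma. Alcohol dehydrogenase Adh1 stood at 27532 ± 6297 (SD, n = 5) and 24293 ± 2705 (SD, n = 3) normalised counts in luciferase livers after water and ethanol, with a log2 effect over both constructs of −0.17 (SE 0.15, adjusted p = 0.603). The mitochondrial aldehyde dehydrogenase Aldh2, the ethanol-inducible cytochrome Cyp2e1, catalase (Cat) and the acetyl-CoA synthetase Acss2 had effects of 0.07 (adjusted p = 0.834), −0.02 (adjusted p = 0.985), −0.19 (adjusted p = 0.605) and 0.26 (adjusted p = 0.380). The stress hormone genes Gdf15 and Fgf21 had effects of 0.31 (adjusted p = 0.321) and 0.74 (adjusted p = 0.306). Cdkn1a, the cell cycle inhibitor p21, missed the threshold at 0.85 (SE 0.22, adjusted p = 0.0529), with 0.71 in luciferase and 0.99 in LbNOX livers. It passed without M3 and M8 (adjusted p = 0.0129), with the filter at 50, for the mean of the within-construct effects and in DESeq2, while in edgeR it did not (adjusted p = 0.0740) and with single libraries left out its adjusted p reached 0.121.

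Some named genes had ethanol effects that differed between the constructs. G6pc, glucose-6-phosphatase, had effects of 3.57 in luciferase and −0.17 in LbNOX livers, a difference of −3.74 (adjusted p = 0.0130), and Acly, which makes cytosolic acetyl-CoA, had effects of 2.70 in luciferase and 0.01 in LbNOX livers, a difference of −2.69 (adjusted p = 0.00200). Cyp7a1, the enzyme that starts bile acid synthesis, had effects of −2.32 in luciferase and 0.17 in LbNOX livers, a difference of 2.49 (adjusted p = 0.0159). In limma with construct as a covariate none of the 3 was called. Acly was called in edgeR (adjusted p = 0.0464, beside 0.0566 in limma and up to 0.140 with single libraries left out), in DESeq2, under quantile normalisation, with the filter at 50 and for the mean of the within-construct effects. G6pc was called in DESeq2 and for that mean, and Cyp7a1 for that mean. The 16 targets of ChREBP, a sugar-sensing factor, gave 1 call in limma, Elovl6 (6.25%, beside 2.79% of all genes). An unadjusted p below 0.05 in limma was reached by 11 of the 16, beside 18.5% of all genes. There were 2 calls in edgeR, 7 in DESeq2, 3 under quantile normalisation, 8 for the mean of the within-construct effects and 6 without M15. Their median effect was 0.93, with 1.95 in luciferase and −0.17 in LbNOX livers. Above 0 in both constructs lay 5 of the 16, beside 26.0% of all genes. The lists of interferon response and of MHC class II genes had no call in limma or edgeR. The median effect was −0.63, with −1.16 in luciferase and 0.17 in LbNOX livers for the first and −0.56, with −1.34 in luciferase and 0.09 in LbNOX livers for the second. Their unadjusted p was below 0.05 for 6 of 19 and 5 of 14 genes in limma, beside 18.5% of all genes. DESeq2 called 0 and 3.

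No gene was called in limma or edgeR in the lists of bile acid synthesis, p53 targets, the unfolded protein response, heat shock, NRF2 oxidative stress, xenobiotic cytochromes, acute phase proteins, immediate early genes and oxidative phosphorylation. Their median effects lay between −0.20 for NRF2 genes and 0.11 for immediate early genes. Several joined opposite directions in luciferase and LbNOX livers: −0.26 and 0.28 for heat shock, and −0.29 and 0.10 for the unfolded protein response. The same held for NRF2 genes (−0.49 and 0.06) and p53 targets (−0.19 and 0.27). Bile acid, xenobiotic and oxidative phosphorylation medians were above 0 in luciferase and below 0 in LbNOX livers. Acute phase and immediate early medians were above 0 in both. An unadjusted p below 0.05 in limma was reached by 0 (oxidative phosphorylation) to 6 (immediate early) genes per list, beside 18.5% of all genes. DESeq2 called 1 gene each of p53 targets, NRF2, xenobiotic and acute phase genes. Of the cell type and quality lists none had a call in limma, edgeR or DESeq2. Neutrophil markers, 5 tested with 3 at an unadjusted p below 0.05, had a median of 1.23, with 0.29 in luciferase and 1.96 in LbNOX livers. Their summed level was 111 to 244 normalised counts in luciferase water, 157 to 271 in luciferase ethanol, 113 to 296 in LbNOX water and 179 to 675 in LbNOX ethanol livers. Cholangiocyte markers had a median of 0.50, with 2 of 7 at an unadjusted p below 0.05, and endothelial markers −0.24, with 4 of 10. Kupffer cell markers had −0.25 and pancreas and fat markers −0.21, each with 0 at that threshold. The medians of hepatocyte, stellate cell, B cell, mitochondrial genome and ribosomal protein genes lay between −0.05 and 0.04, with 1 hepatocyte marker and none of the others at that threshold.

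Most shared calls leaned on particular libraries. With single libraries left out, 108 to 432 genes were called. The count was 201 without M1, 201 without M2, 207 without M5, 223 without M6, 108 without M10, 138 without M11, 112 without M12 and 178 without M13. Of the 378 genes, 83 were called whichever library was left out, and 23 of the 53 called genes named by rule were among them. Without both M3 and M8, the calls of Zbtb16, Vldlr, Ccnb1, St6galnac4, and Rgs3 were lost (adjusted p = 0.0505 to 0.0717). In edgeR those of Ccnb1 and Clec12a were lost, at adjusted p = 0.0622 and 0.0675.

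**Figure D4:**
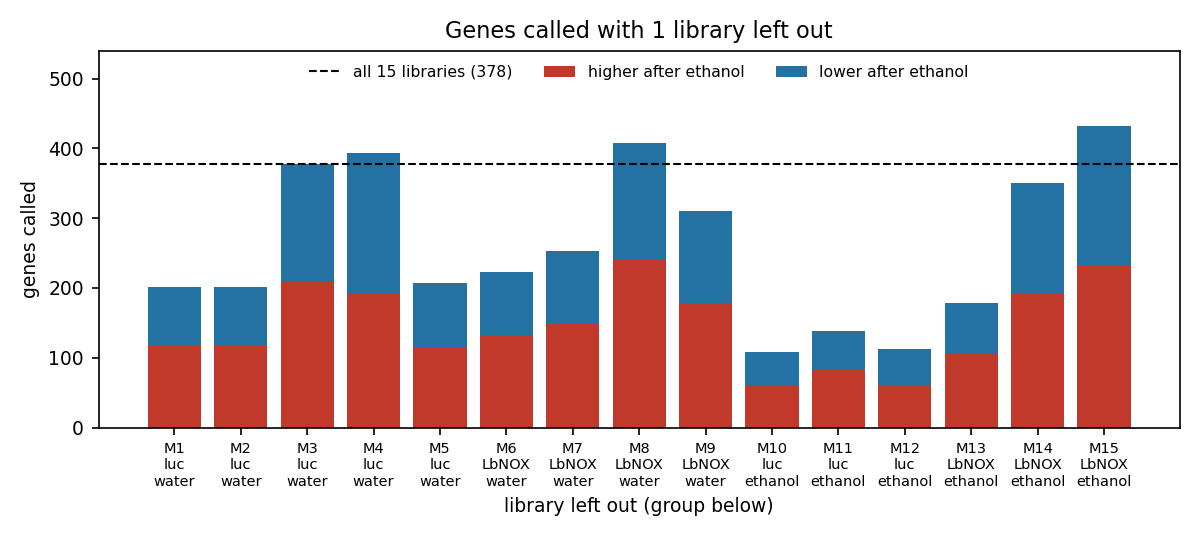
Number of genes called with construct as a covariate when each library in turn was left out, with the horizontal axis naming the library and the vertical axis the count. The lowest counts, 108 to 138, came without the luciferase ethanol libraries M10, M11 and M12, beside 378 with all 15 libraries.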

How the data were processed

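Liver RNA of 15 libraries was sequenced (KAPA mRNA kit, per the labels' protocols). Salmon 1.5.1, DESeq2 1.30.1 and mm10 appear, without roles, in the submitters' processing notes. The deposited table holds one signal per gene and library, counts that the authors divided by a factor per library. Its smallest steps gave whole reads for 100% of 244950 values (within 0.001), and edgeR 4.0.16 and DESeq2 1.42.0 were run on those reads as alternatives. The edgeR test called 382 genes. The main test was limma 3.58.1 (R 4.3.3, trend and robust variances) on log2(value + 1) with gavage and construct as terms, on genes that reached 10 in 3 libraries or more. Effects within constructs and their difference came from a fit with 4 groups. Adjusted p-values are Benjamini-Hochberg over all genes tested.

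Members and 37 gene lists were chosen with earlier results of these data known. Among called genes with a mean of at least 50, the 12 highest and 12 lowest by the smaller of the constructs' effects were named. So were those with the 5 smallest adjusted p in each direction. Up to 3 called members per list were named whatever their mean, and 12 genes were always named, called or not. Date-like names were left out. Columns M1 to M15 show a group and no replicate number. Replicate pairs differed beyond sampling noise (chi-square per degree of freedom 26.5 to 143, 22 pairs). The code was tested on simulated data. Promoters are RefSeq's (GRCm38.p6), matched for 13 of 15 genes.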

Additional observations from a re-analysis of the deposited data

Results flagged for a closer look

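A single library lay far from the rest of its group in 14 of 128 combinations of named gene and water group, where chance flags about 1 in 20. The ethanol groups were too small for this test, so none of their libraries could be flagged. The normalised count is given with that of the nearest library. High values among the luciferase water livers were Morc3 in M3 (701 against 59.9), Npnt in M4 (138 against 54.5), Syne4 in M5 (127 against 43.2), Slc34a2 in M4 (56.3 against 24.0), Clec12a in M3 (179.5 against 76.2) and Tsc22d2 in M4 (181 against 146). High values among the LbNOX water livers were Morc3 in M9 (557 against 0), Sh3pxd2a in M8 (973 against 545), Mpzl1 in M8 (112 against 54.2), Lrp5 in M8 (1338 against 907) and Ccnb1 in M7 (917 against 680.4). Low values there were Hapln4 in M7 (26.6 against 39.1) and Cat in M8 (45505 against 67198). A low value among the luciferase water livers was Cdc20 in M4 (494 against 999). 

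The ethanol effect differed between the constructs, by the test of the difference itself in limma, for 6 of the 64 named genes. The LbNOX minus luciferase differences on the log2 scale were Elovl6 −1.95 (adjusted p = 0.0230), Tarsl2 −0.93 (adjusted p = 0.0394), Fgf21 −2.23 (adjusted p = 0.0382), G6pc −3.74 (adjusted p = 0.0130), Acly −2.69 (adjusted p = 0.00200) and Cyp7a1 2.49 (adjusted p = 0.0159). In limma with construct as a covariate Elovl6 and Tarsl2 were also called for the shared effect, and the rest were not. Acly was called there in edgeR, DESeq2 and other alternatives, and G6pc in DESeq2.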

How the results depend on the processing

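No paired analysis was possible because the table's columns carry no replicate number. Of the 378 calls none changed direction under any alternative run. The count was within 1.5 times of 378 under quantile normalisation, other pseudocounts and filters, limma without trend or robust variances, no construct term, edgeR, without M3 and M8, and without genes listed at 0 beside high values. The last was chosen after seeing the data. It was 705 for the mean of the within-construct effects and 1032 in DESeq2, of which 638 and 994 had the same direction in both constructs. Genes at 0.5 or more in each construct numbered 271 in DESeq2 and 270 without M3 and M8, against 164. With single libraries left out, 108 to 432 were called, 108 to 431 of them in the same direction, 70 to 221 reached 0.5 in each construct, and 212 to 399 passed an unadjusted p of 0.05 in each construct the same way. The cause of these differences was not tested. With 9 water and 6 ethanol libraries and at 10.6 to 23.7 M reads, low genes such as Npas2 in water livers rest on few reads. Of the 53 named calls, 22 were kept in every alternative. Quantile normalisation lost that of Hmgcs1. The fit without the construct term lost those of Hsd17b7, Pfkfb3, Slc34a2 and St6galnac4. Without trend or robust variances those of Ccnb1, Cenpf, Clec12a, Morc3, Rgs3, St6galnac4, Tarsl2 and Zbtb16 were lost, and without a filter those of Morc3, Rgs3, St6galnac4 and Zbtb16.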
